A study of Homo sapiens with 8 samples.

Results

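The scramble control line (SCR) was compared with the unedited wild-type line (WT) of SH-SY5Y, a human neuroblastoma cell line, by RNA-seq of polyadenylated RNA. The comparison rests on 5 of the 8 libraries of the study, 3 of SCR and 2 of WT, and on the 18679 of 47591 listed genes whose mean was at least 10 normalized counts over these 5 libraries. SCR cells had received CRISPR/Cas9 with a commercial scrambled guide and were cultured with puromycin, while WT cells came from a cell repository and are not listed among the puromycin cultures. Both lines were kept in DMEM with fetal bovine serum, and neither carries an edit of PRPF40B, the splicing factor gene that the study targeted in its G2 line (3 libraries). Limiting dilution is described for the edited lines, and whether SCR is 1 clone or a pool is not stated in the sources used here. The construct, the puromycin and the line itself therefore differ together between SCR and WT and cannot be told apart. The labels call the libraries biological replicates without naming separate cultures, so the p-values measure the spread between libraries only. That spread was estimated from all 8 libraries in 1 fit, the 3 of G2 included.

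SH-SY5Y cells descend from sympathoadrenal cells of the neural crest and keep the adrenergic transcription factors and neuropeptides of that lineage. Neuroblastoma cells can also take a mesenchymal state, with matrix genes and other transcription factors in place of the adrenergic ones. The p53 protein is a transcription factor that raises cell cycle inhibitors and death receptors after stress. Its target p21, encoded by CDKN1A, blocks the kinases that release E2F factors, which drive the genes of DNA replication, and genes of mitosis are controlled through a promoter element named CHR.

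The WT libraries stood apart in composition. Ribosomal RNA entries held 4.96% and 4.75% of their normalized counts, against 0.43% to 0.49% in SCR and 0.38% to 0.59% in G2. The 95% Wilson intervals of the WT shares, which cover counting error only, were 4.95% to 4.969% and 4.74% to 4.757%. Depth, estimated as recovered gene counts divided by 3, was 20035515 to 27026916 fragments in SCR and 20731931 and 23935995 in WT. The divisor is approximate, as 66.9% to 71.3% of small counts in these libraries were multiples of 3. The 8 defining markers of the adrenergic state were all above the filter in both lines, with summed levels of 146231 to 155975 normalized counts in SCR and 154811 to 165102 in WT. Of 4 endothelial markers none passed the filter, of 5 blood markers only 1 did, and of 6 Schwann lineage markers 4 did not, SOX10 and FOXD3 among them. In bulk samples such as these, fewer cells of a type and less RNA per cell cannot be told apart.

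PRPF40B, on chromosome 12, had 840, 841 and 918 normalized counts in the G2 libraries, where the gene was targeted, below all SCR and WT libraries (1668 to 1972). Its log2 fold change between SCR and WT was -0.11 (standard error 0.09, limma adjusted p = 0.34), and those libraries overlapped.

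Between the lines 2530 genes (13.5% of those tested) passed a 1.5-fold change and, in limma, a p of 0.05 after Benjamini-Hochberg adjustment. Of the calls, 1622 were higher in SCR (8.68% of genes tested) and 908 lower (4.86%), so 64.1% of them were higher. Every SCR library lay above or below both WT libraries in 55.7% of genes, called or not. This split depended on the scaling. The deposited values are counts divided by a size factor, which set the median log2 fold change of all genes to 0.01. Scaling every library to the same total moved that median to 0.28 and gave 3485 genes higher and 335 lower (91.2% higher), and the same total without ribosomal and mitochondrial entries moved it to 0.21, with 2807 higher and 410 lower (87.3%). A cyclic loess normalization, added after the data were seen, gave 1240 higher and 1003 lower (55.3%). Gene groups below are therefore given with other scalings where these move their counts, and shares of a group are to be read beside the 8.68% and 4.86% of all genes. Without WT replicate 2 the count of calls was 3003, and without any other single library it was 2194 to 2284.

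The largest differences included regulators and secreted factors of development. GJA1, the gap junction protein connexin 43, had 1285, 1272 and 1243 normalized counts in SCR replicates 1 to 3 and 45.9 and 72.5 in WT replicates 1 and 2. That is a 21.6-fold rise (log2 fold change 4.43, standard error 0.14, limma adjusted p = 2.2e-09), and the groups did not overlap, as for every gene named in this paragraph and the next. MSX1, a homeobox transcription factor, had 319, 316 and 261 in SCR and 26.1 and 2.98 in WT, so its fold is imprecise (log2 fold change 4.85, standard error 0.61). HGF, the ligand of the MET receptor, had 193, 169 and 166 in SCR and no more than 9 recovered counts in either WT library, which makes it at least 17.5-fold higher in SCR. The cytokine IL33 rose by 3.82 on the log2 scale, the synaptic adhesion gene SLITRK3 by 4.37 and the fibrillar collagen COL3A1 by 3.72. MR1, which presents vitamin metabolites to T cells, and EVA1A, a regulator of autophagy and cell death, rose by 3.49 each, and the F-box pseudogene FBXL21P by 3.59.

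**Figure D1:**
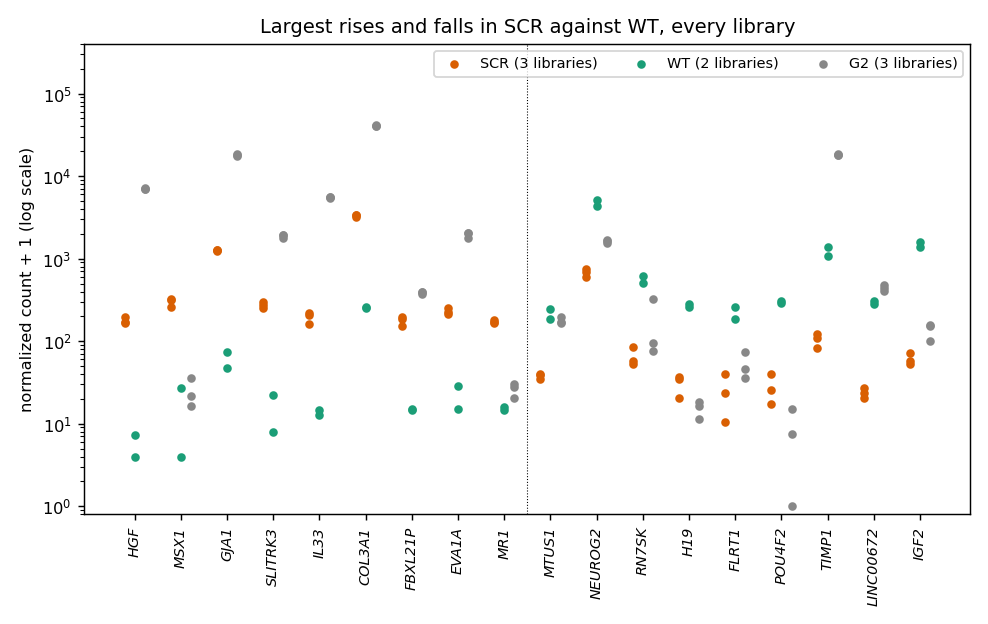
Normalized counts plus 1 (log axis) of the genes named for the largest rises (left of the dotted line) and falls in SCR against WT, among called genes averaging 100 or more. Each point is a library. SCR and WT points do not overlap for any gene shown, while the G2 libraries lie above SCR for HGF, IL33 and GJA1 and near WT for MSX1 and MR1.

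Among called genes averaging 100 or more, IGF2, the fetal growth factor of the imprinted region of chromosome 11, had the largest fall. It had 70.4, 51.6 and 55.9 normalized counts in SCR and 1571 and 1389 in WT, 24.7-fold lower in SCR (log2 fold change -4.63, standard error 0.21, limma adjusted p = 3.7e-08). The neighbouring imprinted non-coding RNA H19 had 19.4, 35.7 and 34.0 in SCR and 260 and 278 in WT. NEUROG2, a proneural factor of sensory and cortical neurons, had 751, 697 and 602 in SCR and 5140 and 4366 in WT (log2 fold change -2.80, standard error 0.10, limma adjusted p = 5.2e-09), and POU4F2, a factor of retinal ganglion and sensory neurons, had 16.3, 24.4 and 39.3 against 310 and 291. The remaining large falls were the metalloproteinase inhibitor TIMP1 (-3.55), LINC00672 (-3.65), the adhesion protein gene FLRT1 (-3.35), the microtubule-associated MTUS1 (-2.49) and RN7SK, the RNA of a small nuclear complex that restrains transcription elongation (-3.12). All of these rises and falls kept their call and direction in each of the 21 alternative analyses.

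Neighbouring genes were looked at after the values were seen. In the HOXD cluster on chromosome 2, the 4 tested genes at the EVX2 end were higher, namely EVX2, HOXD13, HOXD11 and HOXD10. HOXD10 had 205, 258 and 224 in SCR and 94.4 and 95.3 in WT. The genes on the other side of HOXD10 were not called, and HOXD9 (0.15), HOXD8 (-0.39), HOXD4 (-0.73) and HOXD3 (-0.33) include negative values. Around IGF2 and H19, 5 of 12 entries within 200000 bases were lower and none higher, beside 4.86% and 8.68% of all genes. The 5 include IGF2 and H19, for which the locus was chosen. The others were LSP1 (-1.65), MRPL23 (-0.62) and the low SYT8, with 0 in every SCR library and 44.7 and 13.9 in WT. TH, next to IGF2, lay near the filter in both lines. IGF2-AS overlaps IGF2, and as the strand setting of the counting is not given, reads of the pair may not be separated. On chromosome 1, NBPF4, NBPF6 and the 2 unnamed entries between them were above 50 recovered counts in all SCR libraries and at the floor in WT, while the flanking SLC25A24 and FAM102B were not called. NBPF4 had 117, 95.7 and 92.2 in SCR and 4.97 and 1.99 in WT, at least 10.1-fold higher, and it was at 0 in all 3 G2 libraries. NBPF genes are near-identical copies, so reads could be split between them.

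Whole chromosomes had medians close to that of all genes. Median log2 fold changes of the 23 chromosomes tested ran from -0.10 to 0.03, beside -0.03 for all genes at a mean of 100 or more, and windows of 80 neighbouring genes ran from -0.20 on chromosome 12 to 0.22 on the X chromosome. That X window, from 63634967 to 101396155, had 17 genes called higher and 1 lower, beside 9.2% and 3.5% over the whole X chromosome. The chromosome 12 window had 4 higher and 8 lower, beside 6.0% and 7.5%.

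Some genes were at the floor of detection in one line only. A gene was counted when no library of one line exceeded 9 recovered counts, about 3 fragments, and every library of the other had at least 50. This held for 19 genes at the floor in WT and 2 at the floor in SCR. The 2 were BCHE, butyrylcholinesterase, with 120 and 106 normalized counts in WT (at least 13.9-fold lower in SCR), and RNF212, a meiotic gene, with 77.0 and 73.5 in WT and 0 in every SCR and G2 library (at least 9.24-fold lower). Among the 19 were the calcium channel gene CACNA1E (at least 8.02-fold higher in SCR), the protease gene CORIN (at least 10.6-fold), the matrix protein gene SPARCL1 (at least 6.05-fold), the cholesterol exporter ABCA1 (at least 5.92-fold) and the cyclin-dependent kinase inhibitor CDKN2B (at least 5.71-fold). With the floor set at 30 recovered counts, these numbers were 148 and 11.

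Many p53 target genes were higher in SCR. Of 30 members, all tested, 17 were called higher (56.7%, beside 8.68% of all genes) and 1 lower, and 27 had every SCR library above every WT library, beside 27.4% of all genes tested. The list's median log2 fold change was 0.76, against 0.01 for all genes, and it was 1.03 against 0.28 with all libraries at the same total and 0.73 against 0.01 after cyclic loess. CDKN1A, the p21 inhibitor, on chromosome 6 from 36676463 to 36687332, had 23053, 22684 and 22161 normalized counts in SCR and 4580 and 4019 in WT. It rose 5.27-fold (log2 fold change 2.40, standard error 0.08, limma adjusted p = 2.5e-09). PHLDA3, an inhibitor of AKT signalling, had 6681, 5488 and 5819 in SCR and 1386 and 1137 in WT, a log2 fold change of 2.25 (standard error 0.10). TP53INP1, a p53-induced nuclear protein, had 4920, 5286 and 5049 against 1943 and 2063 (1.34, standard error 0.06), and the death receptor TNFRSF10B had 4403, 4492 and 4550 against 1409 and 1759 (1.51, standard error 0.09). In each of these 4 genes the lowest SCR library was more than 2 times the highest WT library.

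Other members were named after their values were seen. BBC3, the pro-apoptotic PUMA, was at 3528 ± 151 in SCR and 1236 ± 141 in WT (SD), the antiproliferative BTG2 at 2550 ± 112 and 948 ± 55.9, the stress sensor SESN1 at 1925 ± 27.0 and 872 ± 32.8, and the secreted GDF15 at 333 ± 58.2 and 70.9 ± 3.36. The fall was TP73, a p53 family member, at 348 ± 34.5 and 592 ± 70.6 (log2 fold change -0.76). MDM2, the ubiquitin ligase that degrades p53, had a log2 fold change of 0.49, under the fold of 1.5 (limma adjusted p = 0.0026). Outside the list, EDA2R, a death receptor relative, had 1660, 1856 and 1606 in SCR and 186 and 196 in WT (log2 fold change 3.15, standard error 0.10). MIR34AHG, the host transcript of the p53-responsive microRNA miR-34a, had 311, 361 and 466 against 53.4 and 51.6, and PTCHD4, a p53-responsive repressor of Hedgehog signalling, 292, 297 and 252 against 16.1 and 37.7. The G2 line was at 428 ± 14.1 for EDA2R, 91.0 ± 7.74 for MIR34AHG and 35.7 ± 5.25 for PTCHD4. In the G2/WT comparison, which shares the WT libraries, 11 of the 30 targets were called higher and 1 lower, beside 15.4% and 11.6% of all genes. In G2/SCR, which shares the SCR libraries, 1 was higher and 12 lower, beside 13% and 11%.

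**Figure D2:**
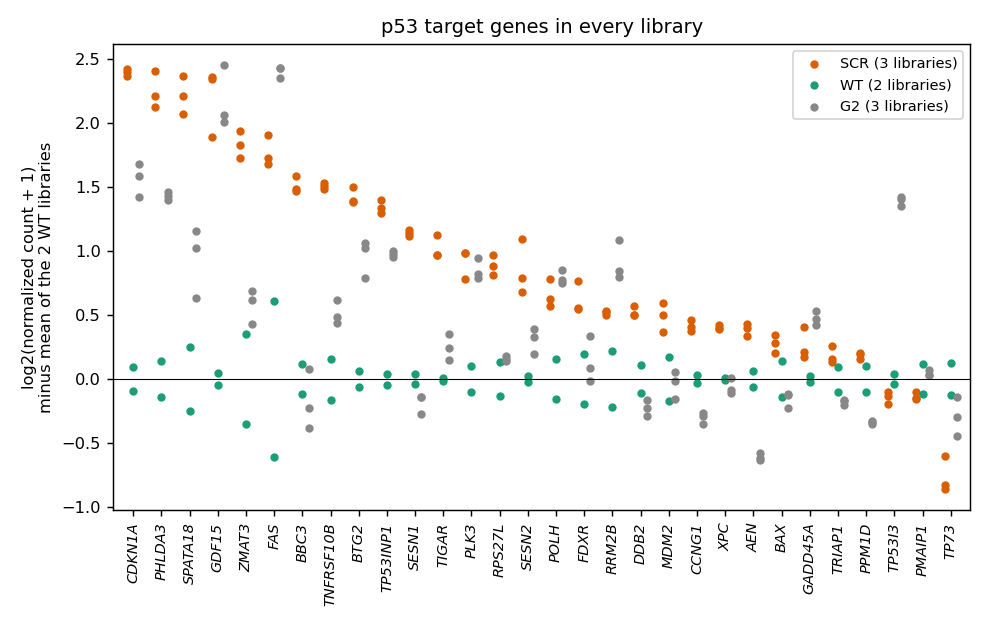
The 30 p53 target genes in every library, as log2(normalized count + 1) minus the mean of the 2 WT libraries. Points are libraries. SCR lies above both WT libraries in 27 genes, most in CDKN1A and PHLDA3, below them in 2 (TP53I3 and TP73), and the G2 libraries lie between SCR and WT in CDKN1A, PHLDA3 and TNFRSF10B.

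Most genes of DNA replication, and 20 of 42 genes of G2 and M phase, were lower in SCR. Of 41 S phase genes 34 were called lower (82.9%, beside 4.86% of all genes) and 0 higher, and in 40 every SCR library lay below every WT library, beside 28.2% of all genes. Of the G2 and M phase genes 47.6% were called lower and 0 higher, and 41 did not overlap. Medians were -0.76 and -0.56. With all libraries at the same total they were -0.48 and -0.28 against 0.28 for all genes, and the calls dropped to 14 and 1, while after cyclic loess they were -0.63 and -0.44 with 29 and 5 calls. No member of either list had a positive log2 fold change with the deposited scaling, and the difference between the 2 lists itself was not tested. In G2/WT, which shares the WT libraries, 29 S phase genes and 3 G2 and M phase genes were called lower and 0 higher. Their medians were -0.68 and -0.29, and 11.6% of all genes were called lower. In G2/SCR, which shares the SCR libraries, 2 genes of each list were higher and 0 lower, with medians of 0.10 and 0.27.

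RRM2, a subunit of ribonucleotide reductase, had 9800, 10011 and 10241 normalized counts in SCR and 20123 and 21264 in WT, 2.07-fold lower (log2 fold change -1.05, standard error 0.06, limma adjusted p = 1.4e-07). CDC6, which loads the replicative helicase, had 3140, 3200 and 3044 against 6385 and 6154 (-1.0, standard error 0.06). PCNA, the sliding clamp of DNA polymerases, had 18400, 19629 and 20336 against 38198 and 37267 (-0.96, standard error 0.06). The replicative helicase subunit MCM2 had 10301, 10612 and 10718 against 19386 and 18757 (-0.85, standard error 0.05). The SCR libraries of all 4 genes were within a narrow range at about the same fraction of WT. E2F1, named after its values were seen, was at 3639 ± 127 in SCR and 7428 ± 741 in WT (SD). Of the mitotic genes, BIRC5, the survivin subunit of the chromosomal passenger complex, had 15437, 15889 and 16152 in SCR and 26887 and 27193 in WT (-0.77, standard error 0.05). The spindle checkpoint gene MAD2L1 had 16364, 17609 and 17773 against 27497 and 28211 (-0.69, standard error 0.06), and the spindle midzone gene PRC1 9994, 10262 and 10721 against 16058 and 16423 (-0.65, standard error 0.06). MKI67, the Ki-67 proliferation antigen, had a log2 fold change of -0.57, just under the fold of 1.5, with SCR at 12773, 11028 and 10623 and WT at 14689 and 19643. Over the 21 alternatives MKI67 ran from -0.78 to -0.29.

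**Figure D3:**
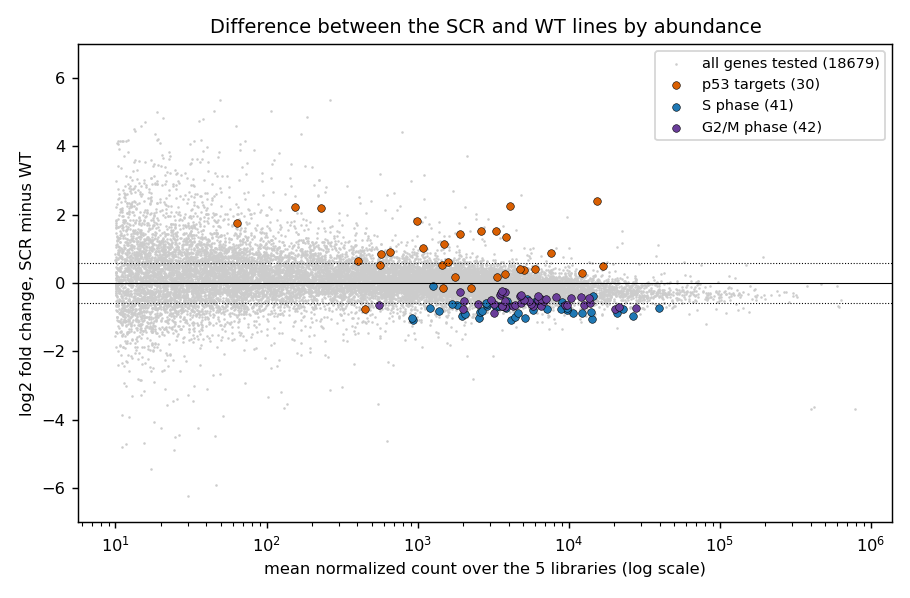
Log2 fold change of SCR against WT (vertical) by mean normalized count over the 5 libraries (log axis) for the 18679 genes tested, with dotted lines at a fold of 1.5. The S phase and G2/M phase genes lie below 0 without exception, and 27 of the 30 p53 targets lie above it.

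The promoters of 3 named genes that fell are printed because each holds a match to an element known from cell cycle genes. E2F elements were searched as TTTCCCGC, TTTCGCGC, TTTGGCGC and TTTGCCGC, and CHR elements as TTTGAA and TTCGAA, on both strands, from 250 bases before to 50 after the annotated start (RefSeq, GRCh38.p14), with the match in capitals. CDC6 (chr17:40287629-40287928, plus strand) and PCNA (chr20:5126573-5126872, minus strand) are shown for E2F and MAD2L1 (chr4:120066799-120067098, minus strand) for CHR, each read 5′ to 3′ along its gene.
CDC6: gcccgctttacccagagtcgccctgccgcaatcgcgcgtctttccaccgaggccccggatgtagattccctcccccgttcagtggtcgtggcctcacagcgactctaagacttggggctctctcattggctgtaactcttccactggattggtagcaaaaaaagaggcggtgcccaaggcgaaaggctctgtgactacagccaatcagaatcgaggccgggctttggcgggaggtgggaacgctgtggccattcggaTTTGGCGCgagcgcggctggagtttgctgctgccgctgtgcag
PCNA: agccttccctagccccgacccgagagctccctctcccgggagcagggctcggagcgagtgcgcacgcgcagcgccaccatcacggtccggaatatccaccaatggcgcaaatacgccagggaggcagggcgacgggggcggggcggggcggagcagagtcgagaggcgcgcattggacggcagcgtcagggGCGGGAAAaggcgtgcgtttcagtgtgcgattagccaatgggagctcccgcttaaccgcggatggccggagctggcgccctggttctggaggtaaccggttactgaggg
MAD2L1: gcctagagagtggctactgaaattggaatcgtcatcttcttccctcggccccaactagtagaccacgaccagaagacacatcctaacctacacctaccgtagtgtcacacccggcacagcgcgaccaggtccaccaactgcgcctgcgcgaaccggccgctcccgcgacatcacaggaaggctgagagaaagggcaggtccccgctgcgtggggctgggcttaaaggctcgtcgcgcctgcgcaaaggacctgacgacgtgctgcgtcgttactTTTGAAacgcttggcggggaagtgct
Counting the start site as 0, the match began at base 7 in CDC6, at -59 in PCNA and at 24 in MAD2L1. Of the S phase genes, 32 had a promoter in the table and 18 of these (56.2%) held an E2F element, beside 5.19% of the 11880 promoters of genes tested. Of the G2 and M phase genes, 27 of 36 (75.0%) held a CHR element, beside 11.3%. Among all genes called lower 10.8% held an E2F element and 16% a CHR element, and among genes called higher 3.25% and 10.5%. The p53 half-site was found in 3 of 25 promoters of p53 targets (12%), beside 5.35% of genes tested. These matches are descriptions of letters in a short window.

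Some genes of the ATF4 stress response, of cholesterol synthesis and of ER folding were lower in SCR, though most members of each list were not called. Of 32 genes of the ATF4 stress response 13 were called lower (40.6%, beside 4.86% of all genes) and 1, SESN2, higher, with a median of -0.45, and with all libraries at the same total 8 were lower and 3 higher. SHMT2 and MTHFD2, mitochondrial enzymes of one-carbon metabolism, had log2 fold changes of -1.13 and -0.93, and PHGDH and PSAT1, the first enzymes of serine synthesis, -1.15 and -0.89. SHMT2 had 8357, 8088 and 8130 in SCR and 19013 and 16959 in WT. Of 30 genes of cholesterol synthesis and uptake 8 were lower (26.7%) and 0 higher (median -0.45), among them INSIG1, a feedback sensor, with 350, 377 and 373 against 981 and 962. The count of cholesterol genes called lower was 2 at the same total and 4 after cyclic loess. Of 22 ER chaperones 7 were lower (31.8%) and 0 higher (median -0.40), with HSPA5, the BiP chaperone, at 20377 ± 439 in SCR and 32799 ± 1367 in WT. With all libraries at the same total the medians of these 3 lists were -0.17, -0.18 and -0.12 against 0.28 for all genes, and 2 ER chaperones were then called higher and 0 lower. After cyclic loess 2 ER chaperones were lower. Of 35 hypoxia-inducible and glycolytic genes, 3 were lower (VEGFA, LDHA and ENO2; 8.6%) and 2 higher (EPAS1 and MXI1; 5.7%), beside 4.86% and 8.68% of all genes. Their median was -0.07. With all libraries at the same total it was 0.20, with 10 higher and 0 lower, and without ribosomal and mitochondrial entries 7 were higher and 0 lower. EPAS1, the oxygen-sensing factor HIF-2α, had 5327, 4975 and 4770 in SCR and 1504 and 1678 in WT (1.66, standard error 0.08).

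Calls among adrenergic transcription factors were all falls. Of 24 tested 5 were called lower (20.8%, beside 4.86% of all genes), DACH1, LMO3, INSM2 and LMO1 among them, and 0 higher, though 3 were higher and 4 lower with all libraries at the same total and 2 higher and 5 lower after cyclic loess, and their median was 0.01. HAND2 had a log2 fold change of 0.05 and overlapped between the lines, and GATA3, at -0.08, turned positive with all libraries at the same total (0.19). INSM2, a zinc finger factor of neuroendocrine cells, had 2815, 2723 and 2985 in SCR and 7153 and 6757 in WT, and the neuroblastoma co-factor LMO3 2263, 2100 and 2253 against 5301 and 6088. Of 24 mesenchymal factors 6 were called higher, SIX4, YAP1, FOSL1, SOX9 and SNAI1 among them (25%, beside 8.68% of all genes), and 0 lower, with a median of 0.23. At the same total 10 were higher and 0 lower, and after cyclic loess 5 and 0. The median level of the mesenchymal list was 254 normalized counts. Of all genes with a mean of 100 to 300, 20.4% were called higher, so its 25% lay near the share of genes at that level. YAP1, the effector of Hippo signalling, had 203, 251 and 206 in SCR and 23.6 and 37.7 in WT (2.83, standard error 0.18), and SOX9 300, 330 and 271 against 113 and 84.4 (1.61, standard error 0.13). Among the mesenchymal markers PRRX1 and FN1 stayed below the filter, and VIM, vimentin, had 0.53, under the fold of 1.5. Over the 21 alternatives VIM ran from 0.42 to 0.91, above that fold in some.

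Matrix and adhesion genes changed in both directions. Of 45 matrix genes tested 17 were higher (37.8%, beside 8.68% of all genes) and 5 lower (11.1%, beside 4.86%) in SCR. Their median was 0.26, and it was 0.54 at the same total, with 22 higher and 3 lower, and 0.29 after cyclic loess, with 13 higher and 3 lower. Beside COL3A1, the rises included the collagen COL5A1, at 1127, 1144 and 1095 in SCR and 212 and 256 in WT, and the proteoglycan lumican (LUM), at 1513, 1533 and 1418 against 372 and 488. The falls were TIMP1, elastin (ELN), TIMP3, FBLN1 and LAMA5. Of 33 integrin and adhesion genes 8 were higher (24.2%, beside 8.68% of all genes) and 5 lower (15.2%, beside 4.86%), with a median of -0.08, and 0.19 at the same total. ITGA6, a laminin receptor subunit, had 537, 582 and 719 in SCR and 91.9 and 157 in WT (2.33, standard error 0.18), while the cadherin CDH4 had 222, 225 and 258 against 556 and 583 (-1.27, standard error 0.13). LUM is also among the fibroblast markers, of which the other 4 were not called, and the summed level of the 5 was 23210 to 23610 in SCR and 24826 to 26378 in WT.

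Genes of axon guidance, excitability and the neuronal cytoskeleton included many rises in SCR. Of 43 axon guidance genes 12 were higher and 2 lower, of 35 ion channels 11 higher and 0 lower, of 34 cytoskeletal and outgrowth genes 7 higher and 0 lower, and of 42 synaptic vesicle genes 7 higher and 2 lower, each beside 8.68% and 4.86% of all genes. PLXNA4, a semaphorin receptor, had 15600, 12792 and 12864 in SCR and 3087 and 4128 in WT (1.94, standard error 0.11). The Slit receptor ROBO2 had 1044, 1158 and 976 against 196 and 287 (2.15, standard error 0.15). SCN4B, a sodium channel subunit, had 547, 546 and 466 against 68.3 and 76.4 (2.83, standard error 0.13), and the RNA-binding protein gene ELAVL2 1928, 2028 and 1988 against 724 and 807 (1.37, standard error 0.09). The medians of the 4 lists were 0.20, 0.37, 0.00 and 0.13. In the cytoskeletal list every SCR library lay above both WT libraries in 12 of 34 members and below them in 10, beside 27.4% and 28.2% of all genes tested. With all libraries at the same total the medians were 0.47, 0.65, 0.27 and 0.40 against 0.28, and 17 ion channels and 11 synaptic genes were called higher. After cyclic loess the calls higher in the 4 lists were 11, 9, 9 and 4, and the calls lower 3, 0, 0 and 2. Of all 18679 genes 1240 were then higher and 1003 lower. The ion channels, 31.4% of them higher, had a median level of 240 normalized counts, and 20.4% of all genes with a mean of 100 to 300 were called higher.

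Genes of dense-core granules, the vesicles of neuropeptides, changed in both directions. Of 15 tested 6 were lower (40%, beside 4.86% of all genes) and 2 higher (PCSK1 and PCSK2, the proprotein convertases; 13.3%, beside 8.68%), with a median of -0.55. At the same total 3 were lower and 3 higher with a median of -0.27, and after cyclic loess 5 were lower and 1 higher with a median of -0.18. VIP had 535, 542 and 487 in SCR and 1881 and 1898 in WT (-1.86, standard error 0.10), galanin (GAL) 12992, 12540 and 13406 against 35214 and 29854 (-1.32, standard error 0.07) and the granin CHGB 16015, 16724 and 15842 against 26530 and 25712 (-0.69, standard error 0.06). Of 16 catecholamine genes 0 were lower and 1 higher (6.2%), the vesicular transporter SLC18A2, with 94.9, 126 and 113 in SCR and 17.4 and 39.7 in WT. The list's median was -0.23, with 12 members negative, and it was 0.05 at the same total and -0.11 after cyclic loess. Every SCR library lay below both WT libraries in 7 members and above them in 3, beside 28.2% and 27.4% of all genes. The growth factor pleiotrophin (PTN), a ligand of the ALK pathway, had 25661, 26064 and 27098 against 12508 and 12495 (1.07, standard error 0.05), and BDNF 180, 281 and 173 against 86.9 and 87.4 (1.23, standard error 0.29), while the RET pathway ligand NRTN was lower (-1.32, standard error 0.24). The receptors RET (-0.24), ALK (0.24) and NTRK2 (0.83, standard error 0.37) were not called. NTRK2 was low, with 39.8, 50.7 and 61.2 in SCR and 21.1 and 35.7 in WT, and its groups did not overlap. Over 20 alternatives NTRK2 ran from 0.47 to 1.2, and 16 of them left it uncalled. RET turned positive, at 0.04, with all libraries at the same total.

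In the smaller lists the counts of calls were between 2 and 7, and the shares are set beside 8.68% of all genes higher and 4.86% lower. Of 27 imprinted genes 4 were higher (GNAS, GRB10, MEST and PLAGL1; 14.8%) and 3 lower (IGF2, H19 and CDKN1C; 11.1%). PLAGL1, a zinc finger factor of the imprinted network, had 1096, 831 and 920 in SCR and 194 and 334 in WT. Of 30 interferon-stimulated genes 4 were higher (13.3%) and 2 lower (6.7%), and of 17 genes of MHC class I presentation 2 were higher (11.8%) and 1 lower (5.9%). Of 14 cancer-testis genes 1 was higher (7.1%) and 2 lower (14.3%), and of 17 protocadherin entries 2 were higher (11.8%) and 1 lower (5.9%). Of 12 HOX entries 3 were higher (25%) and 1 lower (8.3%), and of 9 drug efflux transporters 2 were higher (22.2%) and 0 lower. At the same total the interferon-stimulated list had 7 higher and 2 lower, the imprinted list 7 and 3, and the protocadherin, MHC class I and efflux lists 4 higher each. After cyclic loess the interferon-stimulated list had 3 higher and 5 lower, so its balance depended on the scaling. The imprinted list then had 4 and 3, and the protocadherin, MHC class I and efflux lists 2 higher each. ABCB1, the transporter of the multidrug phenotype, had 18856, 19200 and 17976 in SCR and 12260 and 13029 in WT. Its log2 fold change of 0.56 was just under the fold of 1.5 (limma adjusted p = 1.5e-05). Over the 21 alternatives it ran from 0.52 to 0.84, above that fold in some. Of 17 replication-dependent histone genes 5 were higher (29.4%) and 2 lower (11.8%). H2BC5 had 2275, 2216 and 2184 in SCR and 1170 and 1181 in WT, whereas H1-2 had 1547, 1658 and 1829 against 3041 and 2538, so histone genes changed in both directions. Histone, IFITM, MAGE and protocadherin genes have near-identical copies between which reads could be split. SOX2, a stem cell factor, was lower (-1.19, standard error 0.26), and MYCN, TH and NES were not called.

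**Figure D4:**
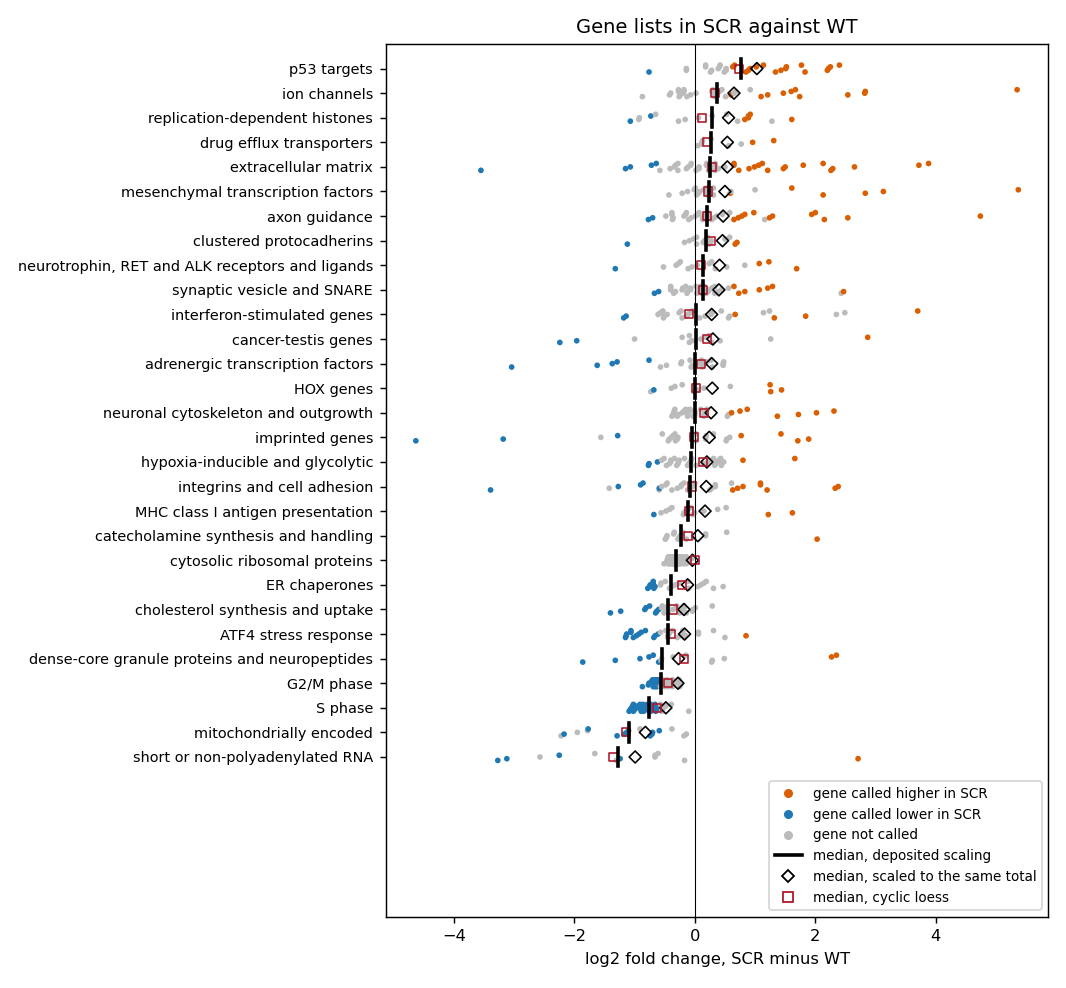
Log2 fold change of SCR against WT for every tested member of 29 gene lists, 1 point a gene, coloured by its call, with the list median under the deposited scaling (bar), with all libraries at the same total (diamond) and after cyclic loess (square). The p53 targets have the highest median, 0.76, and the S phase list, mitochondrial entries and non-polyadenylated RNA the lowest, and the diamonds lie to the right of the bars throughout.

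Several RNAs that lack a poly(A) tail were lower in SCR, as ribosomal RNA was. Of 12 short or non-polyadenylated RNAs tested 4 were lower (RN7SK, RMRP, SNORD3A and SNORA73B; 33.3%, beside 4.86% of all genes). The 1 called higher was a merged entry of U1 genes. RN7SK had 52.0, 84.5 and 56.7 in SCR and 618 and 500 in WT, and RMRP, the RNA of an RNA-processing enzyme, 3.06, 5.63 and 11.3 against 63.3 and 68.5. RN7SL1 of the signal recognition particle was not called and differed within WT, with 4767 and 878. Of 116 small nucleolar RNA entries 16 were lower (13.8%, beside 4.86%) and 1 higher (median -0.51), at a low median level of 35.2 normalized counts. The 17 mitochondrial entries had a median of -1.10, and 10 were lower (58.8%, beside 4.86%) and 0 higher. Their sum was 830822 to 905141 in SCR, 1295197 and 1320598 in WT and 1063160 to 1093117 in G2. The G2 libraries had a ribosomal RNA share like that of SCR, yet their mitochondrial sums lay between those of SCR and WT. The part of library preparation in these differences was not tested.

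Fold changes also followed abundance. The median log2 fold change was 0.19 for genes with a mean of 10 to 30 normalized counts, 0.09 for 300 to 1000, -0.13 for 3000 to 10000 and -0.31 for 30000 or more. Calls higher in SCR made up 20.4% of genes with a mean of 100 to 300 and 1.3% of those with 30000 or more, and calls lower 6.3% and 9.5%. All 80 cytosolic ribosomal protein genes had negative log2 fold changes, between -0.51 and -0.03, yet 0 were called at a fold of 1.5. In 66 every SCR library lay below both WT libraries, beside 28.2% of all genes tested. Their median was -0.32, beside -0.31 for genes with a mean of 30000 or more, and 0.01 after cyclic loess, where the S phase genes kept a median of -0.63. The class of 30000 or more holds 315 genes. With a median level of 73249, ribosomal protein genes form part of it, so -0.32 and -0.31 are not independent. What links abundance to the difference was not tested.

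**Figure D5:**
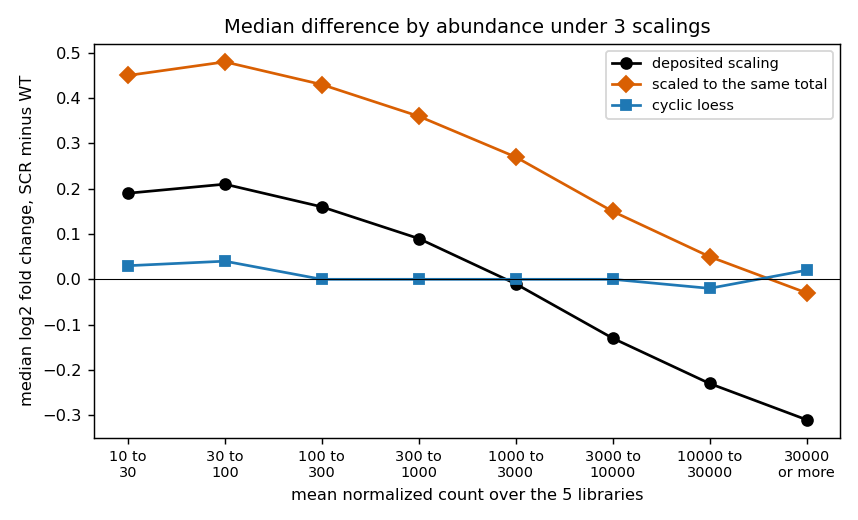
Median log2 fold change of SCR against WT (vertical) in 8 classes of mean normalized count (horizontal) under 3 scalings. The deposited scaling falls from 0.19 to -0.31, scaling to the same total lies above it in every class, and cyclic loess lies within 0.04 of 0.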

How the data were processed

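Polyadenylated RNA of SH-SY5Y cells was prepared with a stranded mRNA kit and sequenced as paired reads. Per the study's methods, the authors mapped reads to hg38 with STAR 2.7.5a and counted them with featureCounts (Subread 1.5.0) on FAST DB 2021_3 genes. The strand setting of the counting is not given in the sources used here. The deposited values are a signal, counts normalized by DESeq2 size factors, neither length-scaled nor logged. Values were whole multiples of 1 step per library, so counts were recovered (100.00% whole within 0.001), with totals of 59804395 to 81080747 and about 3 counts per fragment.

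Genes averaging 10 or more in the SCR and WT libraries were tested with limma 3.58.1 in R 4.3.3 (lmFit, eBayes with trend) on log2(value + 1), a scale that understates changes of low genes, in 1 fit of all 8 libraries with a mean per line, so that the 2 WT libraries share the spread of the others. Calls required a 1.5-fold change and p of 0.05 or less after Benjamini-Hochberg adjustment. Alternatives were edgeR 4.0.16 and DESeq2 1.42.0 on recovered counts (2475 and 2443 genes called), other scalings, filters, a pseudocount of 10, each library left out and replicate blocks. Named genes were the 10 largest rises and 10 largest falls (called, mean of at least 100, single symbol, groups apart), the 4 called members of each hand-written list with the smallest p, and a fixed panel. Other genes were picked with their values in view. The comparison, lists and rules were chosen with earlier results of these data known. Lists were matched by symbol, and entries merging several genes count once. The fit was tested on simulated data. Some items that the naming rule chose are not reported here.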

Additional observations from a re-analysis of the deposited data

How the results depend on the processing

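Against 2530 genes called and 64.1% of them higher in SCR, a fold of at least 2 gave 1151 genes (75.4% higher), a mean of at least 100 gave 1605 (56.1%) and libraries at the same total gave 3820 (91.2%). The share higher was 66.4% with TMM scaling, 55.3% after cyclic loess and 87.3% with the same total without ribosomal and mitochondrial entries. Leaving out 1 library at a time gave 2194 to 3003 genes and 59.9% to 65.6% higher. On recovered counts edgeR called 2475 genes and DESeq2 2443.

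The 34 S phase genes called lower became 7 at a fold of 2, 19 without ribosomal and mitochondrial entries and 14 at the same total (33 to 35 with 1 library left out), and the 20 G2 and M phase genes became 0, 1 and 1, and 5 after cyclic loess (18 to 20). The 17 p53 targets called higher ranged from 16 to 18 with 1 library left out. The causes were not tested.

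Some genes that were not called changed sign. With the same total DBH reached 0.01, RET 0.04, NES 0.09, GATA3 0.19, PRPF40B 0.16 and MYCN 0.21, and without ribosomal and mitochondrial entries NES reached 0.02, GATA3 0.12, PRPF40B 0.09 and MYCN 0.14. After cyclic loess DBH reached 0.02 and GATA3 0.14. With 1 library left out PRPF40B ranged from -0.23 (without WT replicate 2) to 0.01 (without WT replicate 1), and MYCN from -0.18 to 0.05.

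Deviations of same-numbered samples from their line means correlated at -0.035 to 0.026, so no shared replicate effect was seen. With 2 or 3 libraries a line, the deviations within a line are tied to each other, so this is a weak check of pairing. A replicate block gave 2164 genes with the numbers in the library names (60.4% higher, TH at 0.28) and 2395 with those in the titles (61.5%).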
